A study of Homo sapiens with 4 samples.

Results

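Interferon regulatory factors (IRF) and signal transducers and activators of transcription (STAT) are the transcription factors that carry interferon and cytokine signals to genes. The genes considered here are IRF1, IRF2, IRF3, IRF7, IRF8, IRF9, STAT2 and STAT3, chosen by gene symbol with the differences between treated and untreated cells already known. Of these 8 genes 7 were found, each as 1 of the 21448 transcript clusters of the array (a transcript cluster is the set of probes that summarises one locus). STAT2 was not analysed here. SUIT2 cells received 30 µM fb-PMT for 24 h in 2 samples. The 2 control samples, titled untreated, received only the vehicle, saline buffered with phosphate at pH 7.4, for the same time. Both groups were grown in RPMI medium with fetal bovine serum. fb-PMT is a tetraiodothyroacetic acid derivative coupled to polyethylene glycol, made to block the thyroid hormone receptor on integrin αvβ3, and the study asked how it alters transcription of genes that serve mitochondria. The labels do not state whether the samples of a group are separate cultures. The p-values therefore reflect the spread among the 4 arrays alone, which may be technical, and all results come from 1 cell line.

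The labels describe the cells as glioblastoma, while SUIT-2 is known as a pancreatic cancer line. Of 8 glial marker genes 0 were above the negative controls on any array, GFAP and OLIG2 included. Of 8 epithelial markers 7 were above them, with KRT8, KRT19 and EPCAM at log2 values of 15.09 and more on every array. Of 7 measured leukocyte markers 0 were above them. Their mean log2 value was 4.26 and 4.46 on the fb-PMT arrays and 4.61 and 4.55 on the control arrays, and PTPRC, which marks all white blood cells, was between 3.38 and 3.90. "Above the negative controls" means above the 95th percentile of the array's 612 negative control probe sets, which was 7.15 and 7.29 on the fb-PMT arrays and 7.38 and 7.22 on the control arrays.

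As background, interferons bind receptors that switch on JAK kinases, which phosphorylate STAT proteins. STAT2 and IRF9 are parts of the complex ISGF3, which binds the interferon-stimulated response element (ISRE), a pair of GAAA repeats. STAT dimers bind the GAS element, a palindrome of TTC and GAA. IRF1 is itself made in response to such signals and to NF-kappa-B, and then binds IRF sites that overlap the ISRE in genes of antigen presentation and cell death. IRF2 binds the same sites and is known mainly as a repressor. IRF3 and IRF7 are latent in the cytoplasm until sensors of foreign nucleic acid trigger their phosphorylation, and they then switch on the interferon genes. IRF8 acts mostly in myeloid and B cells, and STAT3 serves cytokines of the interleukin-6 family.

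Promoter windows (250 bases before to 50 after the start site, RefSeq, GRCh38.p14) were given for 5 of the 8 genes: IRF1, IRF8, IRF9, STAT2 and STAT3. Each was searched on both strands for the GAS letters TTCNNNGAA, the ISRE letters (GAAA, any 2 bases, GAAA) and the NF-kappa-B consensus. Only 2 of the 5 held a match to any of them. The IRF1 and IRF9 windows are shown in full because these members had the largest measured differences. Capitals mark the matches, and positions count from the start site, with negative numbers before it.
IRF1, chr5:132490724-132491023, minus strand: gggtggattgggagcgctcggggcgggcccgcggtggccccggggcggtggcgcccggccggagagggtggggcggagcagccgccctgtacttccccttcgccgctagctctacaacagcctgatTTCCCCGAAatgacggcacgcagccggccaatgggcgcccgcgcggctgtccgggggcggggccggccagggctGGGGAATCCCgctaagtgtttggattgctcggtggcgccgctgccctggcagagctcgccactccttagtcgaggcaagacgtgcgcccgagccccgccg
IRF9, chr14:24161015-24161314, plus strand: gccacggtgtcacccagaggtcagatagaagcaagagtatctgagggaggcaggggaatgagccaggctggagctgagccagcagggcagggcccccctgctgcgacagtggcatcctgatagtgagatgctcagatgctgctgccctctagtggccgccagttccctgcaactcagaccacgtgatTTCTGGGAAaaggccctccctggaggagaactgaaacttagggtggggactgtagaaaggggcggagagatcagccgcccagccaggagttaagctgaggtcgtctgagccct
The IRF1 window held a GAS match at -124 to -116 and an NF-kappa-B consensus match at -50 to -41. The IRF9 window held a GAS match at -63 to -55. The windows of IRF8, STAT2 and STAT3 held none of the 3 motifs. Among all 35114 promoter windows, 7.66% held the GAS letters, 3.57% the ISRE letters and 11.3% the NF-kappa-B consensus. A match is a description of letters, not a binding site.

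IRF1 was high with fb-PMT and close to the background without it. Its log2 values were 10.35 and 10.56 on the fb-PMT arrays and 7.83 and 7.64 on the control arrays. The groups were far apart: the 4 differences between a treated and an untreated array ran from 2.51 to 2.92, while the replicates lay 0.207 apart with fb-PMT and 0.197 apart in the control group. The mean log2 difference was 2.72 (SE 0.17), a 6.57-fold higher value, and IRF1 ranked 7 among all 21448 transcript clusters in measured difference. In a bulk sample like this one, more cells that transcribe a gene and more RNA per cell cannot be told apart. Because the genes were chosen with this contrast known, their differences are given as descriptions, without a test.

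IRF2, the repressor that competes with IRF1 for its sites, differed little between the groups. Its log2 values were 8.48 and 8.93 on the fb-PMT arrays and 8.54 and 8.70 on the control arrays. The groups overlapped, and both control arrays lay between the fb-PMT arrays. The mean difference was 0.087 (SE 0.20). The fb-PMT replicates of IRF2 were 0.449 apart, a gap larger than that of 94.4% of the 9628 transcript clusters above the negative controls, so IRF2 is the least precisely measured of the expressed members with fb-PMT. Leaving out fb-PMT replicate 2 turned its difference to -0.138, and leaving out fb-PMT replicate 1 gave 0.311.

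IRF9, the DNA-binding subunit of ISGF3, had log2 values of 8.32 and 8.44 on the fb-PMT arrays and 7.71 and 7.91 on the control arrays. Both fb-PMT arrays were above both control arrays, with array-to-array differences of 0.42 to 0.72. The mean log2 difference was 0.57 (SE 0.16), a 1.48-fold higher value. IRF9 ranked 717 among all transcript clusters. Replicates of IRF9 were 0.113 apart with fb-PMT and 0.196 apart in the control group, each smaller than the difference between the groups.

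STAT3, which transmits signals of the interleukin-6 family, had log2 values of 10.79 and 10.77 on the fb-PMT arrays and 10.64 and 10.54 on the control arrays. The groups did not overlap, but lay close together. The mean difference was 0.19 (SE 0.15), a 1.14-fold higher value, with array-to-array differences of 0.13 to 0.25. The SE, which is drawn towards the spread of all transcript clusters, was nearly as large as the difference.

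IRF3, IRF7 and IRF8 lay below the negative controls on all 4 arrays, and no fold is given for them. IRF3 had log2 values of 5.27 and 5.23 on the fb-PMT arrays and 5.31 and 5.45 on the control arrays. IRF7, known as an interferon-inducible factor, was at 3.17 and 3.52 on the fb-PMT arrays and at 3.33 and 3.21 on the control arrays. IRF8 was at 3.03 and 2.72 on the fb-PMT arrays and at 2.74 on both control arrays. The groups overlapped for IRF7 and IRF8, and IRF3 was slightly lower on both fb-PMT arrays. These probe sets give no measured level above the background in either group, which does not show that the transcripts are absent.

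**Figure D1:**
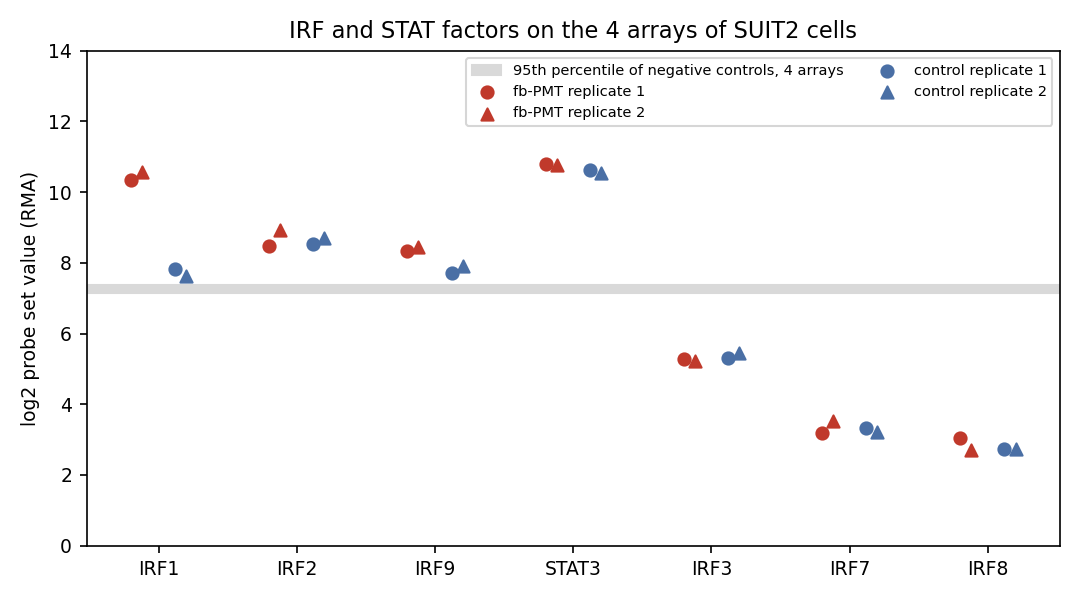
Log2 probe set values (vertical axis) of the 7 measured IRF and STAT genes on each array, fb-PMT in red left of control in blue, with circles for replicate 1 and triangles for replicate 2. The grey band spans the 95th percentile of the negative controls over the 4 arrays; IRF1 stands 2.72 higher with fb-PMT, and IRF3, IRF7 and IRF8 lie under the band in both groups.

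In 3 of the 7 measured genes, IRF1, IRF9 and STAT3, both fb-PMT arrays were above both control arrays, and in 1 gene, IRF3, both were below. Over all transcript clusters 20.2% were higher and 22.3% lower in this sense (26.6% and 22.6% of those above the negative controls), and nothing is read from the members' count, since the contrast chose them. The median log2 difference was 0.132 over the 7 genes, against -0.0173 over all transcript clusters. It was 0.381 over the 4 genes above the negative controls, against 0.0101 over all such transcript clusters.

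The other measured IRF and STAT genes gave no calls. Of 6 other IRF and STAT genes measured (IRF4, IRF5, STAT4, STAT5A, STAT5B and STAT6), 0 passed limma's test over all transcript clusters at an adjusted p of 0.05, and 0 had an unadjusted p under 0.05. STAT6, the factor of interleukin-4 signals, had log2 values of 12.44 and 12.40 on the fb-PMT arrays and 12.28 on both control arrays (difference 0.14, SE 0.14). STAT5A was at 8.95 and 9.05 on the fb-PMT arrays and at 9.11 and 9.02 on the control arrays. STAT5B, a close paralog of STAT5A, was at 7.11 and 7.45 on the fb-PMT arrays and at 6.73 and 7.23 on the control arrays, so its groups overlapped. IRF4, IRF5 and STAT4, factors best known from immune cells, lay below the negative controls on all 4 arrays, and no difference is given for them.

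Upstream of the STAT proteins, 0 of 19 measured receptors and kinases passed over all transcript clusters, where 0.0979% were called higher and 0% lower. With an unadjusted p under 0.05 there were 2 higher and 2 lower genes, beside 5.7% higher and 5.49% lower over all transcript clusters. Both interferon receptor pairs were above the negative controls. IFNAR1, a chain of the type I interferon receptor, had a log2 difference of -0.09 and its partner IFNAR2 one of 0.22. For interferon gamma, IFNGR1 was at 0.32 and IFNGR2 at -0.14. The largest difference among expressed genes of this list was that of IL10RB, a chain shared by the receptors for interleukin-10, interleukin-22 and interferon lambda. IL10RB was at 9.31 and 9.39 on the fb-PMT arrays and at 8.68 and 8.87 on the control arrays (difference 0.58, SE 0.15, limma adjusted p = 0.332). JAK1, the kinase common to these receptors, differed by 0.34 (adjusted p = 0.484), TYK2 by 0.28, and JAK2 was below the negative controls. EGFR, a growth factor receptor that can activate STAT3, had a difference of -0.42 (adjusted p = 0.411).

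Among 18 measured activators of IRF3 and IRF7, 0 passed over all transcript clusters. Of these 18, 4 higher and 0 lower genes had an unadjusted p below 0.05, beside 5.7% and 5.49% of all transcript clusters. TLR3, the endosomal receptor for double-stranded RNA, was the largest. TLR3 had log2 values of 12.46 on both fb-PMT arrays and 10.58 and 10.95 on the control arrays, so the groups were well separated (difference 1.70, SE 0.18, limma adjusted p = 0.061). RIGI, a cytosolic RNA sensor, differed by 0.90 (adjusted p = 0.209) and the adaptor MYD88 by 0.49 (adjusted p = 0.375). TBK1, the kinase that phosphorylates IRF3, was also among the 4 (named after its value was seen), with a difference of 0.49 (adjusted p = 0.386). CGAS, the DNA sensor, and TRAF6, a ubiquitin ligase, had the most negative differences among genes above the negative controls, -0.29 and -0.27.

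The interferon genes themselves gave no signal above the background. Of 19 measured interferon genes (alpha, beta, gamma, kappa, lambda and omega), 0 were above the negative controls on any array. Of these 5 had higher and 14 lower mean values with fb-PMT, and 0 passed. At an unadjusted p under 0.05 there were 1 higher and 1 lower, beside 5.7% and 5.49% of all transcript clusters. IFNB1, the classical target of IRF3, was at 3.86 and 3.67 on the fb-PMT arrays and at 4.22 and 3.86 on the control arrays. IFNG was at 3.45 and 2.99 on the fb-PMT arrays and at 2.78 and 2.75 on the control arrays. Whether interferon protein was present in the medium was not measured.

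Partners and inhibitors of the factors gave 0 calls among 28 measured genes. The unadjusted p was under 0.05 in 3 higher and 0 lower genes, beside 5.7% and 5.49% of all transcript clusters. These 3 were NMI, a protein that binds STAT proteins (log2 difference 0.85, limma adjusted p = 0.223), USP18, which restrains type I interferon receptor signalling (0.56, adjusted p = 0.347), and IFI35, the partner of NMI (0.48, adjusted p = 0.378). NMI was at 10.62 and 10.79 on the fb-PMT arrays and at 9.75 and 9.95 on the control arrays. The negative feedback genes SOCS1 and SOCS3, which are induced by STAT proteins, lay below the negative controls on all 4 arrays. PIAS3, an inhibitor of STAT3, and KPNA5, an importin that carries STAT proteins into the nucleus, had the most negative differences among expressed genes of this list, -0.30 and -0.29.

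Genes known as targets of IRF1 held the only calls among the lists. Of 30 measured, 2 rose and 0 fell past the threshold in limma's test over all transcript clusters, of which 0.0979% rose and 0% fell. Below an unadjusted p of 0.05 lay 14 higher and 0 lower genes of the list, beside 5.7% and 5.49% of all transcript clusters. TNFSF10, which encodes the death ligand TRAIL, was at 15.72 and 15.65 on the fb-PMT arrays and at 13.41 on both control arrays (log2 difference 2.27, SE 0.15, adjusted p = 0.0179). PSMB9, a catalytic subunit of the immunoproteasome, was at 13.89 and 13.87 on the fb-PMT arrays and at 12.14 and 12.09 on the control arrays (difference 1.77, adjusted p = 0.0345). In both genes the groups were clearly separate and the replicates close together. These 2 calls were known when the list was written and are not independent support. They were lost with the replicate number as a block and when any 1 of the 4 arrays was left out.

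PSMB10, another immunoproteasome subunit, was at 10.47 and 10.87 on the fb-PMT arrays and at 8.33 and 9.22 on the control arrays, and did not pass (difference 1.89, SE 0.32, adjusted p = 0.186). The control replicates of PSMB10 were wide apart. Among genes named after their values were seen, PSMB8, also a catalytic immunoproteasome subunit, differed by 1.28, TAPBP (tapasin) by 1.16 and B2M, the light chain of MHC class I, by 0.93. The groups did not overlap in these genes, and none of them passed. CASP1, the inflammatory caspase, was not above the negative controls on either control array and was at least 2.83-fold higher with fb-PMT (adjusted p = 0.0686). LOX, a collagen-crosslinking oxidase, and CDKN1A, a cell cycle inhibitor, had the most negative differences among expressed genes of this list, -0.30 and -0.17. The chemokine genes CXCL9, CXCL10 and CXCL11, which interferon gamma induces in many cells, lay below the negative controls on all 4 arrays, as were IDO1, SOCS1 and CIITA. The median of the 30 genes was 0.311, and that of the 16 above the negative controls 0.931. CASP1 and TAP1 are among the 16 only through their fb-PMT arrays, so the second median partly rests on that group.

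Targets of ISGF3, the complex that holds IRF9, were nearly all on the higher side. Of 41 measured, 38 had a higher mean with fb-PMT, as did 10149 of all 21448 transcript clusters. In 31 both fb-PMT arrays were above both control arrays and in 0 both were below, beside 20.2% and 22.3% of all. Among the 32 above the negative controls these counts were 27 and 0, beside 26.6% and 22.6% of all such transcript clusters. IFIT2 and IFIT5 are among the 32 only through their fb-PMT arrays. The unadjusted p was under 0.05 in 25 higher and 0 lower genes, beside 5.7% and 5.49% of all transcript clusters, and 0 passed. The lists overlap: RIGI, USP18 and IFI35, already counted in the lists above, are among these 25. The median difference over the 41 genes was 0.558. MX1, an antiviral GTPase, had log2 values of 9.20 and 9.01 on the fb-PMT arrays and 7.51 on both control arrays (difference 1.60, SE 0.15, adjusted p = 0.0556). IFIT3, which belongs to the RNA-binding IFIT proteins, was at 9.73 and 9.80 on the fb-PMT arrays and at 8.18 and 8.23 on the control arrays (difference 1.56, adjusted p = 0.0506). UBE2L6, the conjugating enzyme for the ubiquitin-like protein ISG15, differed by 1.37 (adjusted p = 0.0756). Within the list, MX2, a paralog of MX1, was at -0.13 and EIF2AK2, the RNA-activated kinase PKR, at -0.01, both with overlapping groups. OAS1, named after its value was seen, had overlapping groups and a difference of 0.03, and ISG15 was below the negative controls.

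Known targets of STAT3 split in both directions. Of 31 measured, 15 were higher and 16 lower in the mean, with a median of -0.0481, and 0 passed. The unadjusted p was under 0.05 in 4 higher and 2 lower genes, beside 5.7% and 5.49% of all transcript clusters. PIM1, a serine-threonine kinase, was at 11.29 and 11.49 on the fb-PMT arrays and at 10.30 and 10.32 on the control arrays (difference 1.08, SE 0.16, limma adjusted p = 0.123). FGL1, a secreted fibrinogen-like protein, differed by 1.03 (adjusted p = 0.123) and LCN2, an iron-binding acute phase protein, by 0.63 (adjusted p = 0.293). VEGFA, the angiogenic growth factor, was at 9.74 and 10.00 on the fb-PMT arrays and at 10.45 on both control arrays (difference -0.57, adjusted p = 0.35). The proto-oncogene MYC was at -0.33 (adjusted p = 0.48), and SOCS3, a gene induced through STAT3, was below the negative controls on all 4 arrays.

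**Figure D2:**
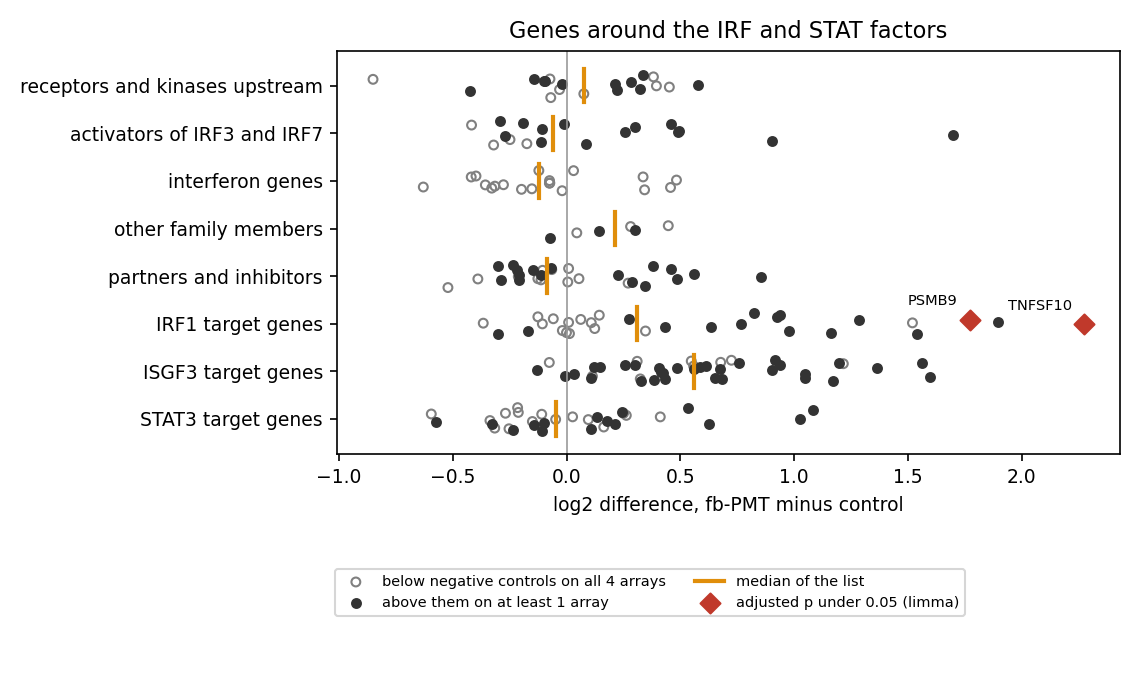
Log2 difference, fb-PMT minus control (horizontal axis), of each measured gene in 8 lists around the IRF and STAT factors; open circles lay below the negative controls on all 4 arrays, orange bars are medians, and red diamonds passed limma's test. TNFSF10 and PSMB9 are the 2 genes that passed, the median is 0.558 for ISGF3 targets and -0.0481 for STAT3 targets, and all 19 interferon genes are open circles.

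Over the 183 measured genes of all 8 lists, the 2 calls became 26 with an intensity trend in the variance and 23 when only transcript clusters above the negative controls were tested. Calls also became more frequent over all features: 1.37% were called higher with the trend and 2.06% with the filter. Over all features, 293 were called higher and 110 lower with the trend, and 198 and 59 with the filter. Among the list genes, 26 were higher and 0 lower with the trend. Of these lists, the IRF1 targets had 10 calls and the ISGF3 targets 11 with the trend, and the other family members, the upstream receptors and the interferon genes had 0. CASP1 and IFIT2 entered the 23 calls of the filter only through their fb-PMT arrays. VCAM1, one of the 26 calls of the trend, lay below the negative controls on all 4 arrays.

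The promoter windows of list genes were searched for the same motifs. A gene was counted where any of its windows held a match. Of 34 ISGF3 target genes with a window, 24 (70.6%) held the ISRE letters, and of 21 IRF1 target genes 15 (71.4%), beside 4.38% of all 27303 genes with a window. The lists were written from textbook knowledge of targets, which may rest on such elements, so these shares are not independent of the lists. Of 20 STAT3 target genes 0 held the ISRE letters and 4 (20.0%) the GAS letters, which 9.38% of all genes held. The GAS share was higher in the interferon genes (35.3%), the ISGF3 targets (29.4%) and the IRF1 targets (28.6%). It was 0.0% to 17.6% in the remaining lists. The ISRE matches of the list genes with the largest differences are shown with 10 bases on each side, read on the strand that gives GAAA first, with the match in capitals. TAP1 was added after its values were seen, since PSMB9 lies beside it on chromosome 6, in the opposite direction.
TNFSF10, chr3:172523598-172523627, plus strand: ggaaaggaggGAAACTGAAAgaagctcctc
PSMB10, chr16:67936852-67936881, minus strand: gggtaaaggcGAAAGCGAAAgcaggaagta
TAP1, chr6:32853813-32853842, plus strand: ccatttagggGAAAGCGAAAtcgaaagcgg
MX1, chr21:41420559-41420588, plus strand: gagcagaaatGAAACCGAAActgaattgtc
IFIT3, chr10:89332425-89332454, minus strand: ctcttgagggGAAACTGAAAcagaatctgt
IFIT3, chr10:89332468-89332497, minus strand: aaggggaaagGAAAGTGAAActgatggaac
TLR3, chr4:186069142-186069171, minus strand: cggcactctcGAAAGTGAAAgtaaagcttg
MX1, IFIT3 and TAP1 hold further matches that are not shown, MX1 and IFIT3 in the windows of other start sites. The window of PSMB9 itself, chr6:32853942-32854241, held none of the 3 motifs, and the TAP1 match lies before the start of that window. TAP1, a peptide transporter subunit, was not above the negative controls on either control array and at least 1.35-fold higher with fb-PMT (adjusted p = 0.26). The UBE2L6 window held no ISRE match.

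Taken over all genes rather than the lists, genes with the ISRE letters in their window had higher values more often than genes without them. Of 7093 genes above the negative controls with a window, the IRF and STAT genes above left out, 274 held the ISRE letters. Their median log2 difference was 0.075, and in 40.1% both fb-PMT arrays were above both control arrays, against 0.00905 and 26.0% in the 6819 genes without them. Differences over 0.5 were seen in 19.3% of genes with the ISRE letters and 4.63% of genes without. With the 2 target lists left out, 247 genes with the letters remained, with a median of 0.054 and 34.4% in which both fb-PMT arrays were above. Within the ISGF3 targets the median was lower with the letters, 0.51 in 18 genes, than without them, 0.684 in 9 genes. Within the IRF1 targets it was 0.98 in 9 genes with the letters and -0.172 in 3 without. For the GAS letters the share was 31.7% of 593 genes, against 26.1% without, and for the NF-kappa-B consensus 28.0% of 1183 genes, against 26.3% without. These shares are descriptions of genes on the same 4 arrays, which are not independent of each other. A gene counted as above the negative controls where at least 1 array of either group was. Some genes, such as TAP1, therefore entered only through their fb-PMT arrays, which may add to the shares of higher genes.

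**Figure D3:**
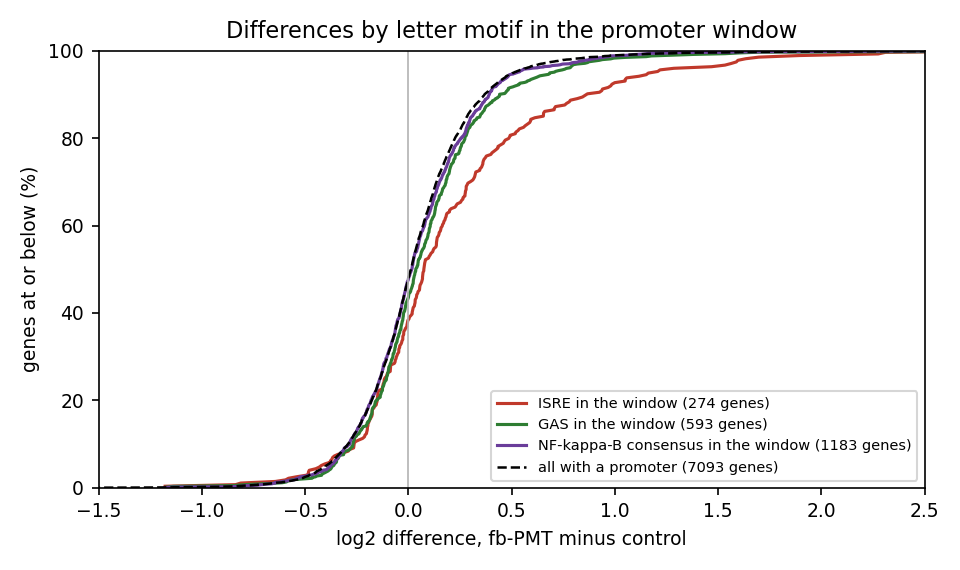
Cumulative share of genes (vertical axis, %) by log2 difference, fb-PMT minus control (horizontal axis), for genes above the negative controls whose promoter window holds the ISRE letters (274), the GAS letters (593) or the NF-kappa-B consensus (1183), and for all 7093 genes with a window (dashed). The ISRE curve runs to the right of the dashed curve at positive differences, and the NF-kappa-B curve lies close to it. Genes entered if above the negative controls on at least 1 array of either group.

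The genes whose values over the 4 arrays were most like those of IRF1 were found by Euclidean distance between values minus each gene's mean, among 8453 genes above the negative controls on at least 1 array. The 5 nearest, in order, were LGALS9C (distance 0.254), LGALS9 (0.319), TNFRSF9 (0.333), GRAMD1C (0.355) and GBP4 (0.429), against a median distance of 2.73. LGALS9C, TNFRSF9 and GBP4 were not above the negative controls on either control array, so they entered only through fb-PMT, and their distances and ranks rest on background values. They were at least 2.32-fold, 3.01-fold and 4.45-fold higher with fb-PMT. LGALS9 encodes galectin-9, TNFRSF9 the costimulatory receptor 4-1BB and GBP4 an interferon-inducible GTPase. LGALS9C is a near copy of LGALS9, so its probes may share signal with it. With only 4 arrays in 2 groups, likeness here means chiefly a like difference between the groups. For IRF9, in neighbours named after their values were seen, the nearest were ZNF76 (not above the negative controls on either control array), IL10RB, CAPN5, EPSTI1 and APOBEC3B, at distances of 0.0262 to 0.0553. EPSTI1 and IL10RB are also in the ISGF3 target and upstream lists.

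**Figure D4:**
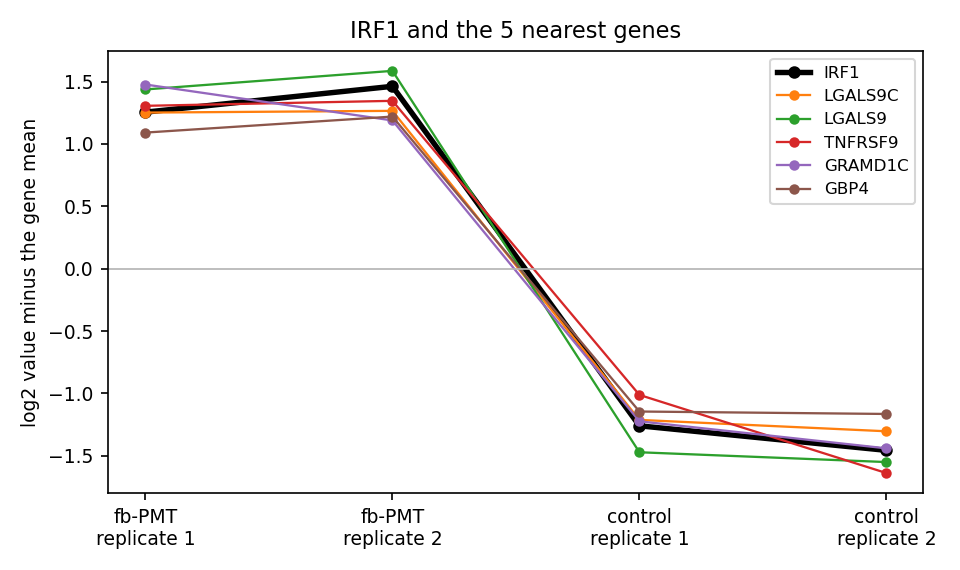
Log2 values minus the gene's mean (vertical axis) on each array for IRF1 (thick black line) and the 5 genes nearest to it; lines only join the values of one gene. All 6 genes are above their mean on both fb-PMT arrays and below it on both control arrays.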

How the data were processed

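RNA of 4 samples, 2 per group, was measured on Affymetrix whole-transcript arrays. The authors deposited log2 values per probe set. The submitters' processing notes name RMA and Transcriptome Analysis Console, version 4.0.1.36. The genome build they used is not given in the sources used here. RMA puts all arrays on a common scale (array medians 6.27 to 6.28), so a shift shared by all genes would not be seen. Signal over background and the number of arrays limit the precision.

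Of 24351 probe sets, 2903 control probe sets were left out and 21448 tested; 17709 had 1 gene symbol and 3739 had no name here. Differences are fb-PMT minus control. They were fitted with limma 3.58.1 (lmFit, eBayes without trend) in R 4.3.3, adjusted by Benjamini-Hochberg over all transcript clusters at 0.05. The fit was also run on simulated data with independent noise drawn from its own variance model. That check required calls only for the largest added differences, so it does not show how often smaller ones are called. A gene below the negative controls on 1 side has a lower-bound fold, "at least", taken on each dim array against the higher of the gene's own value and the 95th percentile of the negative controls.

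The members, lists and tests were chosen with earlier results of these data known. Named list genes are those that passed, and the 3 highest and 2 lowest differences per list among genes above the negative controls; other list genes were named after their values were seen. Promoter windows are RefSeq's. Correlation of the deviations of same-numbered arrays was 0.042, so replicate numbers were not taken as pairs. Alternatives were a replicate block, variance trends, filters, 2 rescalings and leaving out each array.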

Additional observations from a re-analysis of the deposited data

How the results depend on the processing

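Over all transcript clusters 21 were called. The count was 1 with the replicate number as a replicate block, 403 with an intensity trend, 394 with a robust trend, 257 with the filter on negative controls and 44 with only 1-symbol transcript clusters. Leaving out 1 array gave 1 to 9 calls. Of the 183 list genes 2 were called. The count was 0 with the replicate block, 26 with either trend, 23 with the filter, 5 with only 1-symbol transcript clusters and 0 without any 1 array. Quantile normalization gave 17 and 2 calls and median centring 21 and 2. The 21 calls were all among those of the trend and filter settings. The replicate numbers were not shown to pair the arrays (correlation 0.042). The median of the IRF and STAT genes, 0.132, stayed at 0.132 with the block, was 0.165 with quantile normalization and 0.134 with centring, and moved to 0.381 over the 4 genes above the negative controls. Without 1 array it was 0.132 to 0.242. IRF1, IRF9, STAT3 and IRF3 kept their direction without any 1 array. IRF2 and IRF7 turned negative without fb-PMT replicate 2 (IRF7 to -0.0993), and IRF8 turned to -0.0248 without fb-PMT replicate 1. No member has several transcript clusters, so averaging over them was not run. The cause of these changes was not tested. With 2 arrays a group, differences the size of STAT3's lie near their SE, and genes under the negative controls have no measured level.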
